A study of Mus musculus with 60 samples.

Results

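The genes described here build the primary cilium and the centrosome. They were taken as the protein-coding mouse genes whose symbols begin with Ift and a number, or consist of Bbs, Cep, Tctn or Nphp and a number. This rule found 68 of the 35889 genes in the files, of which 21530 were protein-coding, and used no measured value. The members were 35 Cep genes, 12 genes of the IFT-B1 core, 4 of the IFT-B2 periphery, 3 of IFT-A, 6 of the BBSome, 2 chaperonin-like Bbs genes, 3 Tctn genes and 3 Nphp genes. All 68 passed the filter on low counts in every comparison.

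The libraries came from Ai14:cFos-TRAP2 mice, in which cells that express cFos become permanently tdTomato-positive when 4-hydroxytamoxifen is given. All trained mice, aged 8 to 16 weeks, had self-administered both intravenous cocaine and oral sucrose, then went through extinction and cue-induced reinstatement of each reward, and received 4-hydroxytamoxifen after the cocaine test. Mice were killed 60 min after the sucrose test, and their NeuN+ events were sorted into cocaine-seeking (tdTomato+), sucrose-seeking (cFos+), overlapping (both signals) and non-ensemble (neither signal) populations. Each group held 3 libraries, each from a pool of 3 mice, for each sex and each of 2 regions, which gave 48 libraries: the nucleus accumbens, or NAc, and the prefrontal cortex in its medial division, or mPFC. A naive group added 12 libraries of the same regions and sexes whose treatment the labels do not explain. No untrained control entered the 48, so the non-ensemble cells had seen the same cocaine, sucrose and 4-hydroxytamoxifen as the tagged cells. The 4 populations of a pool came from the same mice. Punches of both regions were taken from the same 9 mice a sex, so the regions are not independent samples, and whether a pool number marks the same mice in both regions is not given in the sources used here. In bulk RNA of sorted cells fewer cells of a type and less RNA per cell cannot be told apart.

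The 48 libraries held 9933361 to 24500899 estimated counts each, with a median of 13723715, and the naive libraries 29238727 to 45299753. Some libraries went against their labels. Female pool 2 held RNA of the Y-linked gene Ddx3y at 12.2 to 20.5 CPM (counts scaled to the library total and by a TMM factor computed over all 60 libraries), against at most 2.27 CPM in female pools 1 and 3. The summed level of 6 cortex markers was lower in the female mPFC libraries (87.0 to 175 CPM) than in the female NAc libraries (259 to 501 CPM), and male mPFC pool 2 (104 to 125 CPM) stood below male mPFC pools 1 and 3 (456 to 978 CPM). The summed level of 8 accumbens markers went the way of the labels in females, at 2097 to 3719 CPM in the NAc and 696 to 1863 CPM in the mPFC, and overlapped in males, at 1306 to 3637 and 291 to 2156 CPM. The region names below are therefore the labels of the libraries, and counts of changed genes are given with and without female pool 2 where its removal moved them.

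A primary cilium is a short antenna of microtubules that grows from the mother centriole, and most neurons of the brain carry such a cilium. Intraflagellar transport (IFT) trains move along it, with IFT-B needed for entry and IFT-A for return, and the BBSome, a cargo adaptor, carries receptors out of it. Tectonics (Tctn) and nephrocystins (Nphp) belong to the transition zone and its neighbouring compartment, the gate at the base, while the Cep proteins sit on the centrioles, their appendages and the material around them. In neurons the cilium holds adenylyl cyclase 3 and several G protein-coupled receptors.

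Compared per length, in TPM (estimated counts scaled for transcript length and library total) over 24 libraries a region, the members spanned a wide range. In the NAc, Cep89, a protein of the distal appendages that anchor the centriole to the membrane, had the highest level of the Cep genes at 191 ± 46.6 TPM (SD, n = 24), and Cep55, a protein of cell division, the lowest at 0.850 ± 0.501 TPM. Ift46 led the IFT-B1 core with 163 ± 31.7 TPM and Ift70a1 closed it with 1.11 TPM. The BBSome genes ran from Bbs1 (39.2 TPM) down to Bbs7 (10.1 TPM). These extremes say which members were abundant as annotated transcripts of any kind, since most counts of Cep89 and Ift46 fell on transcripts without a coding frame, as shown further on. Ift172 (66.0 TPM) was highest and Ift80 (30.5 TPM) lowest of the IFT-B2 genes, and Ift122 (37.2 TPM) and Ift43 (21.2 TPM) bounded IFT-A. At the gate the bounds were Tctn1 (33.9 TPM) and Tctn3 (17.1 TPM) for the tectonics, Nphp4 (32.0 TPM) was highest of the nephrocystins, and Bbs10 (2.32 TPM) and Bbs12 (1.81 TPM) were both low. In the mPFC the same genes led and closed their subfamilies except that Ift57 (30.5 TPM) was lowest of IFT-B2 and Bbs12 (2.05 TPM) was above Bbs10 (1.92 TPM). There Cep89 was at 287 ± 73.0 TPM, Cep55 at 1.46 TPM, Ift46 at 199 ± 40.5 TPM and Ift70a1 at 1.44 TPM. The other extremes of the mPFC were Ift172 (75.2 TPM), Ift122 (46.7 TPM), Ift43 (18.1 TPM), Bbs1 (49.8 TPM), Bbs7 (8.66 TPM), Tctn1 (41.7 TPM), Tctn3 (16.9 TPM) and Nphp4 (40.7 TPM). Bbs10 and Bbs12 differed by less than their SDs in each region. Ift70a1, Ift70a2 and Ift70b are near-identical copies, so the split of reads between them is uncertain.

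**Figure D1:**
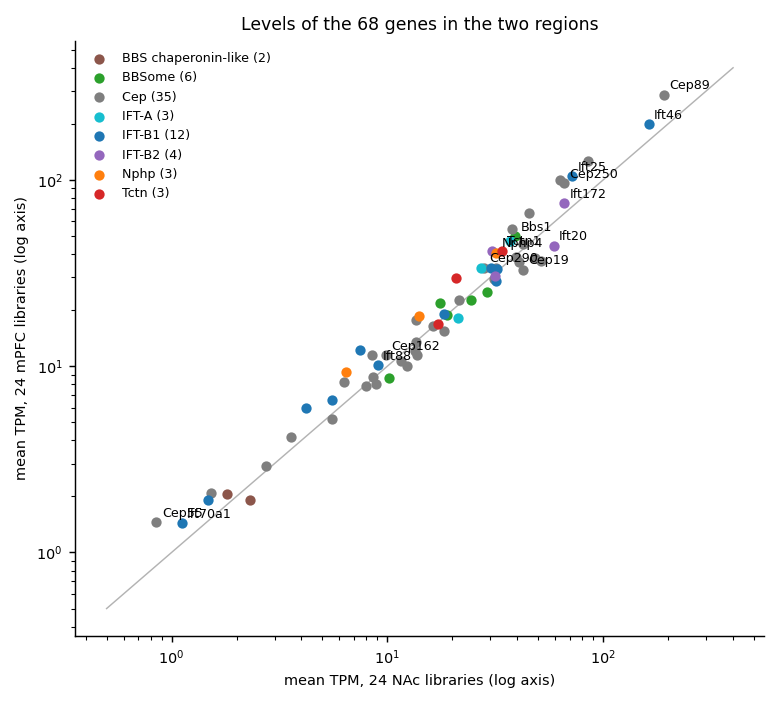
Mean level of each of the 68 members in TPM over the 24 libraries labelled NAc (x axis, log scale) and the 24 labelled mPFC (y axis, log scale), 1 point a gene, coloured by subfamily. Cep89 is the highest point, at 191 TPM in the NAc and 287 TPM in the mPFC, and Cep55 and Ift70a1 lie lowest.

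The transcripts behind these levels differed from gene to gene. For 16 of the 68 members less than 50% of the estimated counts, over the 48 libraries, were assigned to transcripts annotated as protein-coding, and for 22 more than 90% were, with a median of 78.5% over the members. The lowest coding shares were those of Ift80 (2.12%), Ift25 (2.48%), Cep89 (3.63%), Cep20 (13.1%) and Ift46 (21.8%). In Ift25 the transcript Ift25-205, whose coding sequence is not defined, took 97.5% of the gene's counts.
For 5 transcripts annotated as retained-intron, a boundary between a coding exon and an intron that the transcript crosses is shown. These transcripts took a large part of their genes' counts (Ift80-203 69.6%, Cep89-204 81.2%, Cep290-207 42.6%, Bbs5-208 44.3% and Cep135-203 67.0%). The stretches are given in GRCm39 with the GENCODE release 39 annotation, 5′ to 3′ on the strand of the gene, with the intron in capitals and the coding exon in lower case.
Ift80-203 (chr3:68825919-68825998, minus strand, 3′ end of the intron): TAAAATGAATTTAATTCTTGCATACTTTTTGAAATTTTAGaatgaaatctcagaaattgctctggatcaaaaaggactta
Cep89-204 (chr7:35126985-35127064, plus strand, 3′ end of the intron): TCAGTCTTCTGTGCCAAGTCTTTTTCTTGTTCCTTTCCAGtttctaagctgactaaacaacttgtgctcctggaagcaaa
Cep290-207 (chr10:100407885-100407964, plus strand, 3′ end of the intron): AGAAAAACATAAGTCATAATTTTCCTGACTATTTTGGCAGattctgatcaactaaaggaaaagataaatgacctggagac
Bbs5-208 (chr2:69479409-69479488, plus strand, 5′ end of the intron): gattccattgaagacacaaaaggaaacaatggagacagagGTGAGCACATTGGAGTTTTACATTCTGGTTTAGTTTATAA
Cep135-203 (chr5:76784879-76784958, plus strand, 5′ end of the intron): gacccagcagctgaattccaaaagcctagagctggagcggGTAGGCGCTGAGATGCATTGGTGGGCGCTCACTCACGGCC
The intron sides at the 3′ ends close with AG and those at the 5′ ends open with GT, the usual splice signals. Reads across them hold sequence of that intron, and where such reads came from was not tested. The counts of a whole transcript need not lie on such a stretch, since Cep290-207 has only 5.94% of its length outside the exons of the canonical transcript.

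Summed over the 68 members, the level was highest in the sucrose-seeking populations. In the female NAc the 3 non-ensemble libraries held 2364 ± 70.5 CPM (mean ± SD, n = 3), the cocaine-seeking 2371 CPM, the overlapping 2352 CPM and the sucrose-seeking 2785 ± 151 CPM. In the male NAc the non-ensemble libraries held 2248 ± 123 CPM and the sucrose-seeking 2584 ± 152 CPM. In the mPFC the sum went from 2309 ± 25.3 to 2558 ± 178 CPM in females and from 2397 ± 139 to 2765 ± 249 CPM in males. Pool by pool, the sucrose-seeking sum stood above the non-ensemble sum in 6 of 6 NAc pools, with a median ratio of 1.16 (1.12 to 1.24), and in 6 of 6 mPFC pools, with a median ratio of 1.13 (1.06 to 1.19). These values carry the TMM factor, which was itself higher in the sucrose-seeking libraries, by a median ratio of 1.14 in the NAc and 1.11 in the mPFC. Scaled to the library total alone, the ratio was 1.32 in the NAc (1.24 to 1.42) and 1.26 in the mPFC (1.20 to 1.30), above 1 in 6 of 6 pools of each, and the female NAc sums were 2168 ± 172 CPM in non-ensemble, 2355 CPM in cocaine-seeking, 2351 CPM in overlapping and 2875 ± 152 CPM in sucrose-seeking libraries.

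Split by transcript, the members' other transcripts were higher in the sucrose-seeking libraries under each scaling, while the coding sum depended on the scaling. On TMM-scaled CPM the coding sum had a median sucrose-seeking to non-ensemble ratio of 0.985 in the NAc (0.895 to 1.12, above 1 in 3 of 6 pools) and 1.00 in the mPFC (0.939 to 1.17, above 1 in 3 of 6 pools). Scaled to the library total alone, the coding ratio was 1.13 in the NAc (1.03 to 1.21) and 1.13 in the mPFC (1.05 to 1.25), and relative to all counts on protein-coding transcripts it was 1.25 (1.15 to 1.36) and 1.24 (1.16 to 1.35), each above 1 in 6 of 6 pools. The sum over the members' other transcripts had a TMM-scaled ratio of 1.68 in the NAc (1.32 to 1.90, above 1 in 6 of 6 pools) and 1.40 in the mPFC (1.19 to 1.49, above 1 in 6 of 6 pools), and scaled to the library total 1.95 (1.44 to 2.18) and 1.53 (1.30 to 1.70), again in 6 of 6 pools. In the female NAc the TMM-scaled coding sum was 1789 ± 57.2 CPM in non-ensemble and 1796 ± 116 CPM in sucrose-seeking libraries, while the sum over other transcripts was 575 ± 113 and 989 ± 109 CPM. The whole library moved as well. Its share on protein-coding transcripts fell by a median of 8.46 points in the NAc and 6.92 points in the mPFC, lower in 6 of 6 pools of each, and in the female NAc it averaged 84.2% in the non-ensemble and 75.6% in the sucrose-seeking cells. In the same pools its share on retained-intron transcripts was higher in sucrose-seeking than non-ensemble libraries by a median of 3.97 points (NAc) and 3.47 points (mPFC), each in 6 of 6 pools. The share on pseudogenes was higher by 2.99 and 2.20 points and the share on unmatched transcripts by 1.20 and 0.806 points, again in 6 of 6 pools. Cocaine-seeking and overlapping libraries also held more of the members' other transcripts than non-ensemble libraries in 6 of 6 pools of each region, with median ratios of 1.22 and 1.32 for NAc pools and of 1.19 and 1.26 for mPFC pools. Their TMM-scaled coding ratios were 0.901 and 0.918 in the NAc, against 0.919 and 0.929 in the mPFC, and scaled to the library total 0.996 and 1.01, against 0.988 and 1.01, above 1 in 3 of 6 pools each.

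**Figure D2:**
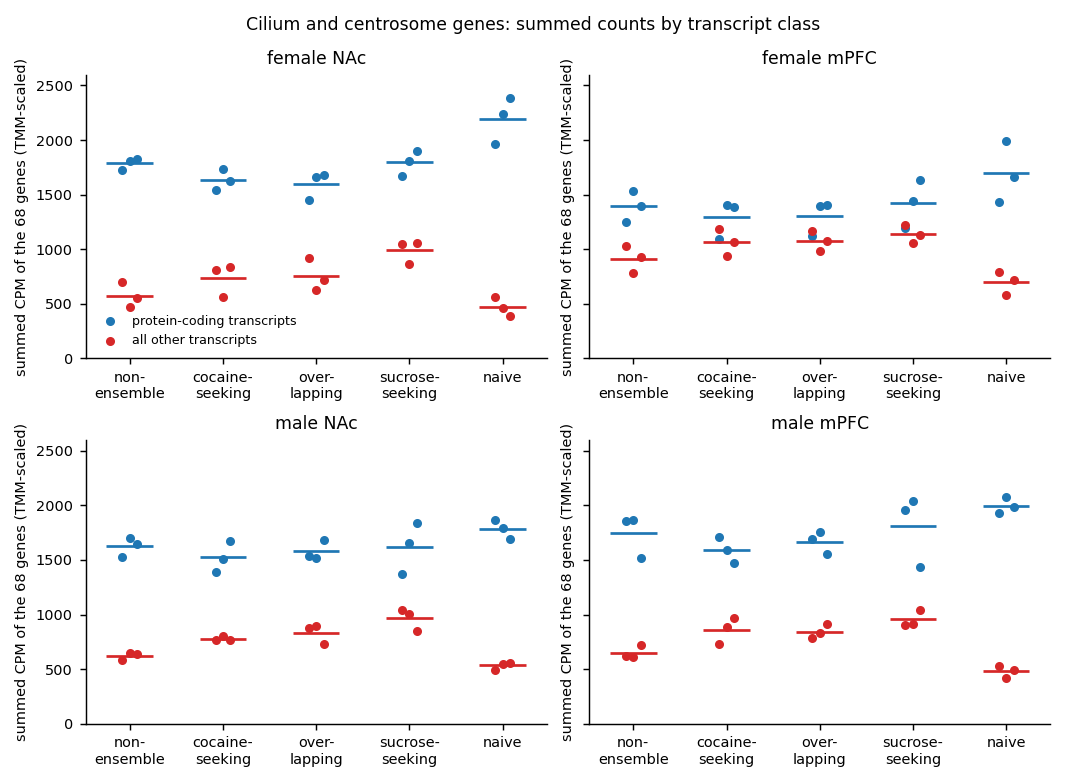
Summed level of the 68 members in TMM-scaled CPM (y axis) on protein-coding transcripts (blue) and on all other transcripts (red) for each population (x axis) and each sex and region (panels); points are the 3 libraries of a group and lines their mean. The red values of the sucrose-seeking libraries sit above those of the non-ensemble libraries in every panel, for example 989 against 575 CPM on average in the female NAc, while on this scaling the blue values stay close.

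The comparison of sucrose-seeking with non-ensemble cells sets NeuN+ events with a cFos signal after the sucrose test against NeuN+ events with neither signal. Both held RNA of other cell types. The 8 astrocyte markers, for example, summed to 4370 to 5518 CPM in female NAc non-ensemble libraries and 2759 to 3361 CPM in sucrose-seeking libraries. In the female NAc, 6 members rose, among them Bbs5, Cep89, Ift80, Cep162 and Cep295, and 2 fell (Cep19 and Ift81) at an adjusted p under 0.05 (edgeR's quasi-likelihood test with Benjamini-Hochberg adjustment over all genes). Over all genes 5.78% rose and 10.1% fell. In the male NAc, 4 members rose (Ift80, Ift46, Cep89 and Cep162) and 1 fell (Cep19), where 2.83% of all genes rose and 6.56% fell. In the mPFC no member passed by edgeR in either sex, with 16 members at an unadjusted p under 0.05 in females and 20 in males. By edgeR only 0.025% of all genes rose and 0.0% fell there in females, and 0.193% rose and 0.0118% fell in males. DESeq2 called 3 and 5 members there, and its share over all genes is not given here. The members' median log2 fold change was 0.21 in the female NAc, 0.21 in the male NAc, 0.19 in the female mPFC and 0.24 in the male mPFC, beside medians over all genes of 0.16, 0.10, 0.02 and 0.10 and over protein-coding genes, to which all members belong, of 0.06, 0.00, -0.02 and 0.02. Counted with each pool as its own control (replicate block), 14 members rose and 2 fell in the female NAc, 12 and 4 in the male NAc, 15 and 1 in the female mPFC and 17 and 2 in the male mPFC, where 26.4%, 19.1%, 13.8% and 17.2% of all genes passed in either direction. With length-scaled counts, which correct a gene's counts for the lengths of its transcripts, Cep19 alone kept its call in the female NAc, and no member was called in the male NAc, where 19 had an unadjusted p under 0.05 (2.59% and 0.0% of all genes passed by edgeR). Leaving out 1 library moved these counts. The female NAc had 14 calls without the non-ensemble library of pool 1, 4 without the sucrose-seeking library of pool 1 or the non-ensemble library of pool 2 or pool 3, and 1 without the sucrose-seeking library of pool 3. The male NAc had 1 call without a non-ensemble library of pool 1 or 2 or the sucrose-seeking library of pool 1, 0 without the sucrose-seeking library of pool 2 or the non-ensemble library of pool 3, and 6 without the sucrose-seeking library of pool 3.

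**Figure D3:**
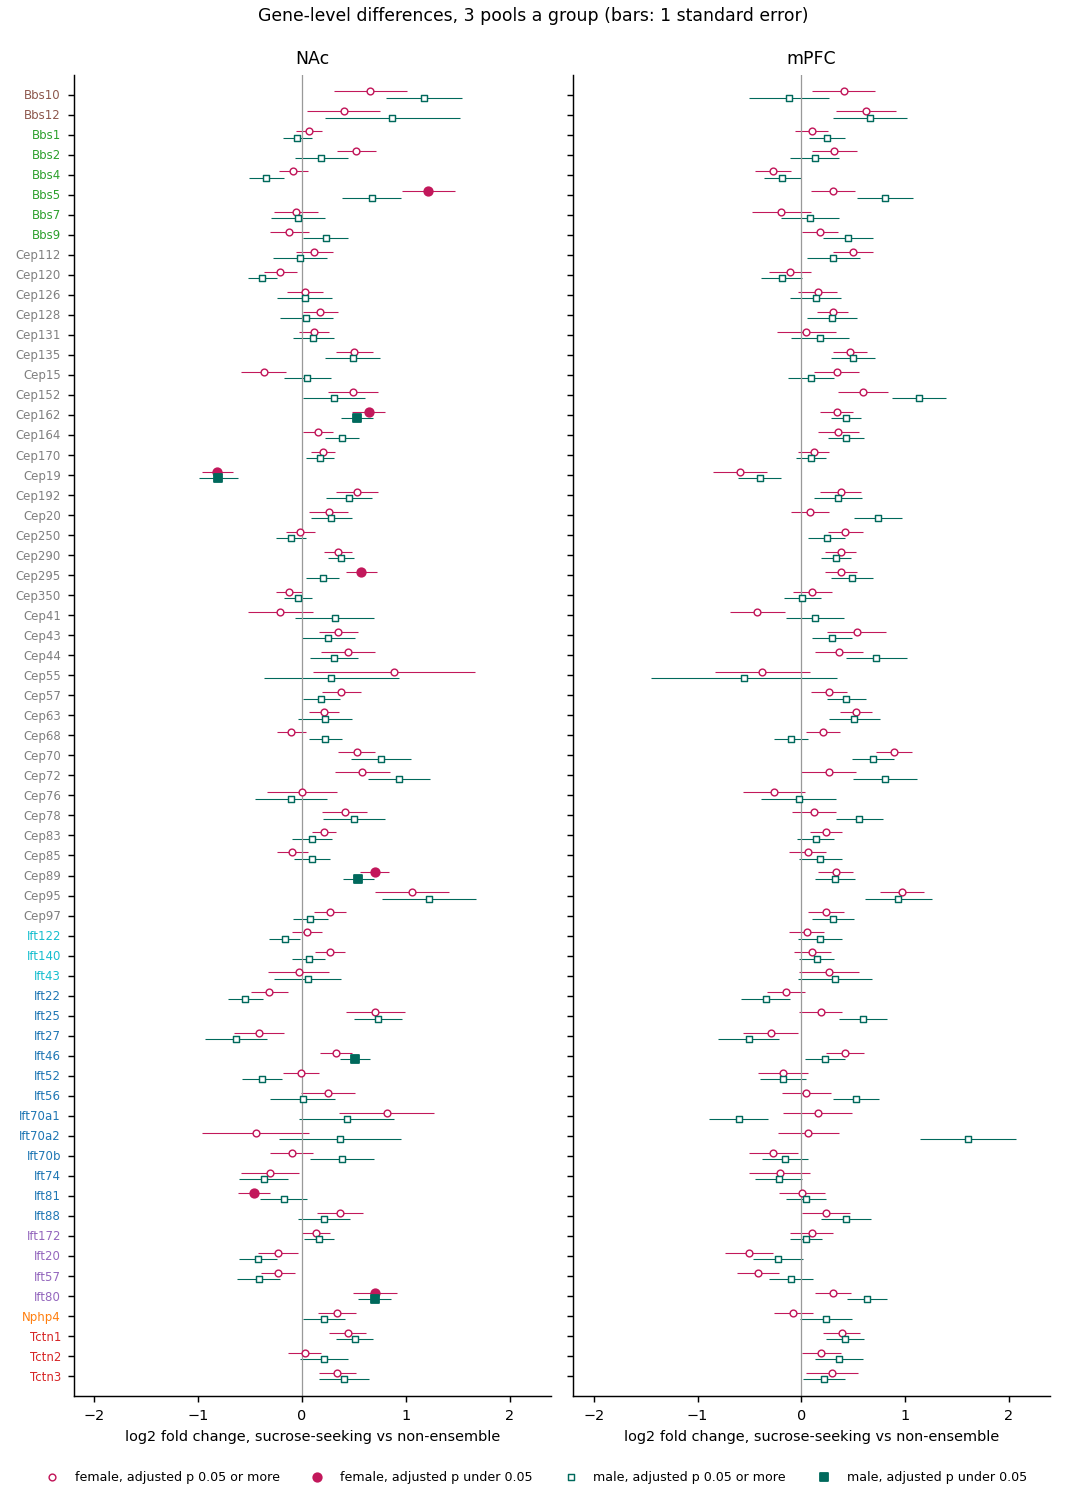
log2 fold change of sucrose-seeking against non-ensemble libraries (x axis) for 65 of the 68 members (rows, coloured by subfamily), NAc left and mPFC right, females as circles and males as squares, bars 1 standard error, filled where the adjusted p is under 0.05. Most points lie right of 0, and Cep19 lies at -0.81 in both sexes of the NAc.

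With the female and male differences averaged in 1 fit of 24 libraries a region, a fit chosen after seeing the data, 16 members rose and 4 fell in the NAc (11.2% and 15.8% of all genes), and 14 rose and 0 fell in the mPFC (6.61% and 6.36% of all genes). The members' median was 0.14 in the NAc against 0.20 over all genes and 0.06 over protein-coding genes, and 0.28 in the mPFC against 0.12 and 0.04. In the paired fit of the replicate block 18 rose and 7 fell in the NAc, where 32.9% of all genes passed. In the mPFC that fit gave 27 and 2, where 25.3% did. Without female pool 2 the counts were 16 and 3 in the NAc (all but Cep135 and Ift27 of those that passed) and 4 and 0 in the mPFC, the latter including Cep152, Cep70 and Cep95. Leaving out the sucrose-seeking library of male pool 2 gave 7 calls in the mPFC, and leaving out either library of female pool 3 gave 9. With length-scaled counts 10 members rose and 8 fell in the NAc (17.4% of all genes passed), Cep19, Cep89, Ift22 and Tctn1 among the 5 of the 20 that kept their calls, and 3 rose and 2 fell in the mPFC (5.59%), where Cep152 and Tctn1 alone of the 14 kept theirs. Among protein-coding genes alone, 24 members rose and 2 fell in the NAc, against 19 and 1 in the mPFC, and the share of all genes in that fit is not given here. By subfamily, 9 of 35 Cep genes rose and 2 fell in the NAc (median 0.20) and 9 rose in the mPFC (median 0.34). Of the 12 IFT-B1 genes, 2 rose and 2 fell in the NAc and 1 rose in the mPFC, with medians of 0.03 and -0.07. Of the 3 IFT-A genes none passed in either region, and of the 6 BBSome genes 1, Bbs5, rose in each.

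Counted on protein-coding transcripts alone, an alternative also chosen after seeing the data, 7 members rose and 1 fell in the female NAc (14.1% of all genes passed), 1 rose in the male NAc (2.9%), 1 rose in the female mPFC (0.326%) and 0 passed in the male mPFC (0.363%), where 13 had an unadjusted p under 0.05 and DESeq2 was not run on these counts. Over both sexes 12 rose and 2 fell in the NAc and 14 rose in the mPFC, of 26.8% and 14.3% of all genes. Only some of these were the genes called before: 6 of the 20 in the NAc (Cep162, Cep19, Cep295, Cep70, Cep95 and Tctn1) and 8 of the 14 in the mPFC (Cep152, Cep162, Cep164, Cep295, Cep63, Cep70, Cep95 and Ift70a2). Coding transcripts with the replicate block gave 10 up and 2 down in the female NAc, 4 and 1 in the male NAc, 10 and 2 in the female mPFC and 7 and 0 in the male mPFC, of 23.7%, 13.3%, 13.9% and 13.8% of all genes.

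**Figure D4:**
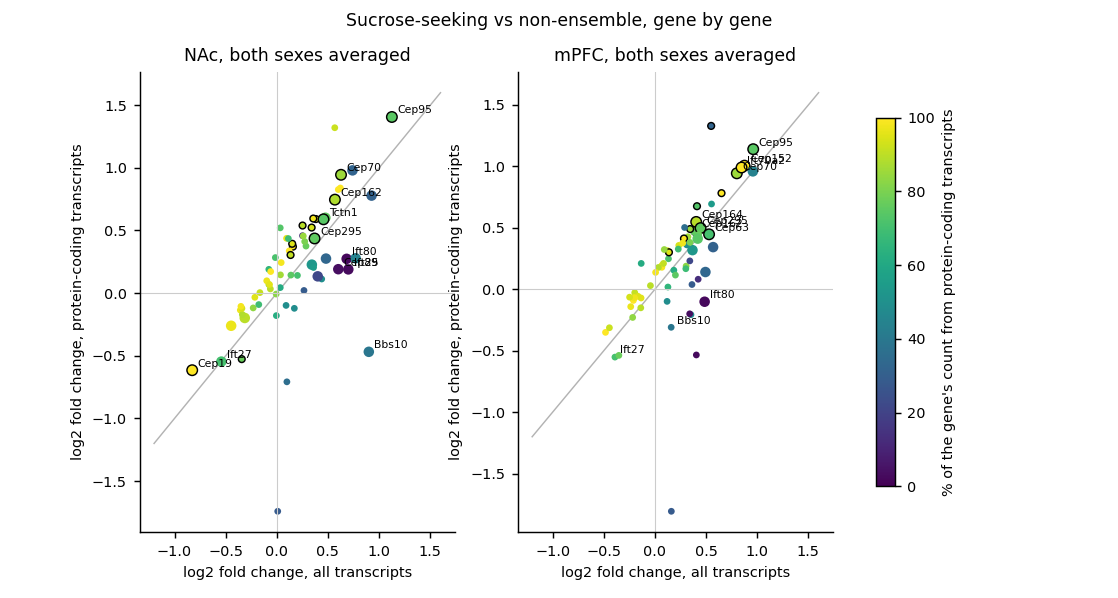
log2 fold change of sucrose-seeking against non-ensemble libraries, both sexes averaged, on all transcripts of a gene (x axis) and on its protein-coding transcripts alone (y axis), 1 point a member, NAc left and mPFC right, coloured by the percent of the gene's counts on coding transcripts. Large points passed on all transcripts and black rims on coding transcripts; in the NAc 6 of the 20 large points carry a rim, among them Cep19 at the lower left and Cep95 at the upper right.

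Cep162, which binds the axoneme end of the centriole and promotes assembly of the transition zone, rose in both sexes of the NAc on either count. In the female NAc it was at 45.6, 38.3 and 45.5 CPM in non-ensemble pools 1, 2 and 3 and at 63.5, 63.5 and 82.9 CPM in the sucrose-seeking pools, and in the male NAc at 38.6, 47.0 and 45.1 against 54.6, 73.9 and 66.1 CPM. The groups did not overlap in either sex. The change was 1.56-fold in females (log2 0.64 ± 0.16 SE, adjusted p = 0.0136, edgeR) and 1.44-fold in males (log2 0.53 ± 0.15, adjusted p = 0.0398). On coding transcripts it was 0.74 in females (adjusted p = 0.0138) and 0.71 in males (adjusted p = 0.0405) on the log2 scale. Leaving out the sucrose-seeking library of pool 3 in females, or of pool 2 in males, raised the adjusted p to 0.109 and 0.185, whereas the averaged difference of 0.57 ± 0.11 (adjusted p = 0.000393) passed in 12 of 12 such fits. With length-scaled counts Cep162 was not called, at 0.43 in females (adjusted p = 0.39), 0.15 in males (adjusted p = 0.8) and 0.28 averaged over the sexes (adjusted p = 0.326). In the mPFC the libraries stood at 64.2, 50.9 and 61.0 against 79.1, 66.3 and 70.6 CPM in females, and at 51.8, 50.4 and 51.1 against 65.0, 64.5 and 77.4 CPM in males. Neither pair of groups overlapped, yet the adjusted p was 0.349 in females and 0.122 in males, and 0.0161 and 0.0132 with the replicate block. Cocaine-seeking females of the NAc (58.4, 42.2 and 59.0 CPM) stayed below the sucrose-seeking range, and cocaine-seeking males (54.5, 57.7 and 48.3 CPM) overlapped it.

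Cep19, a centriolar protein that helps load IFT-B onto the cilium, went the other way. Female NAc non-ensemble libraries held 52.5, 38.6 and 52.6 CPM and sucrose-seeking libraries 28.1, 28.5 and 28.0 CPM. Male NAc libraries held 58.5, 40.9 and 44.0 against 26.0, 28.3 and 30.0 CPM. Every sucrose-seeking library was below every non-ensemble library of its sex, and the cocaine-seeking (43.9, 49.5 and 37.7 CPM) and overlapping (40.6, 40.4 and 37.6 CPM) female libraries were above it as well. Its call in females held with length-scaled counts (-1.10, adjusted p = 0.0385). Cep19 fell by 0.81 on the log2 scale in females (SE 0.15, adjusted p = 0.00561) and by 0.81 in males (SE 0.19, adjusted p = 0.0209), and its averaged difference of -0.83 ± 0.12 (adjusted p = 5.34e-05) passed in 12 of 12 fits that left out a library. Its counts were all on coding transcripts, so that a fit on coding transcripts changed only the scaling between libraries, and there the difference was -0.64 in females (adjusted p = 0.0148) and -0.63 in males (adjusted p = 0.0738, and 0.0489 with the replicate block). In the mPFC the libraries were at 23.6, 38.4 and 29.7 against 15.9, 24.6 and 18.5 CPM in females and at 43.1, 43.6 and 33.4 against 33.2, 34.4 and 23.0 CPM in males. These ranges overlapped, and the averaged difference was -0.48 ± 0.17 (adjusted p = 0.0646, and 0.000162 with the replicate block). Cep19 shares its locus with other coding genes, Senp5, Pak2 and Pigx among them, and whether the counting used strand is not given in the sources used here.

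Cep70, which binds gamma-tubulin and shapes centrosomal microtubules, and Cep95, a centrosomal protein, rose over both sexes in each region. Cep70 stood at 21.8, 21.5 and 19.7 CPM in female mPFC non-ensemble libraries and at 31.9, 33.6 and 47.6 CPM in sucrose-seeking libraries, and at 30.7, 25.9 and 25.2 against 48.9, 51.1 and 31.1 CPM in males. The female and male groups were each fully separated. The averaged log2 difference was 0.80 ± 0.13 (adjusted p = 0.000694) in the mPFC and 0.63 ± 0.18 (adjusted p = 0.0106) in the NAc, and on coding transcripts 0.94 in each (adjusted p = 0.000187 and 0.00415). Cep95 went from 7.30, 6.75 and 6.86 to 13.1, 12.4 and 14.1 CPM in the female mPFC and from 10.9, 2.71 and 8.31 to 15.5, 15.6 and 16.4 CPM in the female NAc. No sucrose-seeking library overlapped a non-ensemble library there, while in the male NAc pool 1 (8.48 CPM, sucrose-seeking) lay within the non-ensemble range of 1.78 to 8.94 CPM. Its averaged difference was 1.12 ± 0.31 (adjusted p = 0.00782) in the NAc and 0.96 ± 0.19 (adjusted p = 0.00305) in the mPFC, with 1.41 and 1.14 on coding transcripts. With length-scaled counts neither gene passed in either region, with an adjusted p of 0.158 and 0.152 for Cep70 and of 0.148 and 0.176 for Cep95. Cep95 overlaps the abundant gene Ddx5 on the opposite strand.

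Other centriole genes passed on coding transcripts as well. Cep152, which brings the duplication kinase PLK4 to the centriole, was at 7.33, 3.61 and 5.45 CPM in male mPFC non-ensemble libraries and at 12.4, 11.8 and 11.7 CPM in sucrose-seeking libraries. Its averaged mPFC difference was 0.88 ± 0.18 (adjusted p = 0.00306), and 1.01 (adjusted p = 0.0015) on coding transcripts. Cep63, its partner in that recruitment, had an averaged mPFC difference of 0.53 ± 0.14 (adjusted p = 0.0172), and 0.45 (adjusted p = 0.0467) on coding transcripts. Cep295, which turns a new centriole into a centrosome, was at 60.3, 59.5 and 48.0 CPM in female NAc non-ensemble libraries and at 84.5, 77.9 and 97.2 CPM in sucrose-seeking libraries, a clear gap. It rose by log2 0.57 ± 0.15 there (adjusted p = 0.0166, and 0.0236 on coding transcripts), against 0.20 in the male NAc (adjusted p = 0.464). The difference between the sexes was not called for any member. Cep164, a distal appendage protein that recruits the kinase TTBK2, had an averaged difference of 0.40 ± 0.13 in the mPFC (adjusted p = 0.0405), and 0.55 there (adjusted p = 0.00925) and 0.54 in the NAc (adjusted p = 0.00257) on coding transcripts. Without female pool 2, Cep162, Cep164, Cep295 and Cep63 lost their averaged mPFC calls. With length-scaled counts they lost them too, while Cep152 kept its own (0.98, adjusted p = 0.0118) and the female NAc value of Cep295 was 0.14 (adjusted p = 0.792).

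The remaining Cep genes called over both sexes in the NAc were called there on all transcripts only. Cep290, a large protein of the transition zone, was at 85.8, 80.1 and 70.9 CPM in female NAc non-ensemble libraries and at 106, 96.9 and 110 CPM in sucrose-seeking libraries, and at 68.8, 81.4 and 76.7 against 96.3, 101 and 105 CPM in males. The groups were separated in each sex, and the averaged difference was 0.34 ± 0.09 in the NAc (adjusted p = 0.00561) and 0.37 ± 0.09 in the mPFC (adjusted p = 0.00885). On coding transcripts it was 0.23 (adjusted p = 0.168) and 0.32 (adjusted p = 0.0722). In the NAc Cep192, a scaffold of the pericentriolar material, rose by 0.47 ± 0.15 (adjusted p = 0.0197), Cep72, a protein of the centriolar satellites, by 0.74 ± 0.19 (adjusted p = 0.00515) and Cep135, a cartwheel protein, by 0.48 ± 0.17 (adjusted p = 0.0364), and their adjusted p on coding transcripts was 0.052, 0.0931 and 0.483. In the mPFC Cep135 rose by 0.49 ± 0.13 (adjusted p = 0.0124) on all transcripts, with 0.14 on coding transcripts (adjusted p = 0.785), and Cep72 passed on coding transcripts alone (1.33, adjusted p = 0.0113). The averaged mPFC calls of Cep290 and Cep135 were lost without female pool 2. Cep120, which elongates centrioles, fell by 0.31 in the NAc (SE 0.11, adjusted p = 0.0295), a call present in 3 of 12 fits that left out a library, and had an adjusted p of 0.119 on coding transcripts.

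Cep89 rose in the NAc on all transcripts, without a call on coding transcripts. Its female NAc libraries went from 59.3, 54.8 and 53.1 CPM in non-ensemble to 99.4, 81.5 and 102 CPM in sucrose-seeking, and its male NAc libraries from 64.0, 65.3 and 66.5 to 113, 92.2 and 86.7 CPM. The groups lay far apart, at log2 0.70 ± 0.14 in females (adjusted p = 0.00666) and 0.54 ± 0.15 in males (adjusted p = 0.0351). Its coding transcripts gave 0.579, 8.59 and 2.11 CPM in female non-ensemble and 1.30, 0.593 and 2.22 CPM in female sucrose-seeking libraries, which overlapped, and a log2 difference of -1.31 (adjusted p = 0.457). With length-scaled counts Cep89 had 0.68 in females (adjusted p = 0.0648), 0.48 in males (adjusted p = 0.212) and 0.57 averaged over the sexes (adjusted p = 0.00394).

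Among the transport genes, Ift80 of the IFT-B2 periphery rose on all transcripts. It was at 76.0, 48.8 and 61.7 CPM in female NAc non-ensemble libraries against 116, 90.7 and 108 CPM in sucrose-seeking libraries, and at 73.3, 63.2 and 62.9 against 127, 116 and 89.6 CPM in males. No libraries overlapped within a sex, and the log2 difference was 0.70 ± 0.21 in females (adjusted p = 0.0348) and 0.70 ± 0.16 in males (adjusted p = 0.0189). The averaged difference was 0.68 ± 0.14 in the NAc (adjusted p = 0.000559) and 0.49 ± 0.13 in the mPFC (adjusted p = 0.0146, and 0.0832 without female pool 2). On coding transcripts, which held at most 8.86 CPM in any of the 48 libraries, it was 0.27 (adjusted p = 0.866) and -0.10 (adjusted p = 0.954). With length-scaled counts Ift80 was at -0.25 in females (adjusted p = 0.673), 0.10 in males (adjusted p = 0.862) and -0.09 averaged (adjusted p = 0.822). Ift46 of the IFT-B1 core rose in the male NAc from 44.5, 50.3 and 47.7 to 75.6, 70.1 and 62.9 CPM without overlap (log2 0.51 ± 0.14, adjusted p = 0.0333), and its averaged difference was 0.13 on coding transcripts (adjusted p = 0.555) and 0.18 with length-scaled counts (adjusted p = 0.43). Ift25, which with Ift27 couples the BBSome to the train, rose over both sexes in the NAc by 0.70 ± 0.19 (adjusted p = 0.00816), with 0.19 on coding transcripts (adjusted p = 0.73). In females its non-ensemble libraries (95.6, 53.9 and 76.9 CPM) overlapped the sucrose-seeking libraries (152, 88.6 and 145 CPM), while in males (84.4, 75.3 and 77.9 against 166, 146 and 92.1 CPM) they did not.

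A few transport genes went down. Ift81, which with Ift74 binds tubulin, was at 39.97, 37.4 and 40.6 CPM in female NAc non-ensemble libraries and at 29.3, 33.0 and 26.1 CPM in sucrose-seeking libraries. It fell by 0.46 (SE 0.15, adjusted p = 0.0499, and up to 0.199 without 1 library). Ift22 and Ift27, small GTPase-like subunits of the core, fell over both sexes in the NAc by 0.45 (SE 0.12, adjusted p = 0.00645) and 0.54 (SE 0.20, adjusted p = 0.0429), the latter a call present in 2 of 12 fits that left out a library. On coding transcripts their adjusted p was 0.0845 and 0.101. Ift20, which also works at the Golgi, held 22.9, 24.3 and 20.9 CPM in male NAc non-ensemble libraries and 15.3, 17.7 and 19.3 CPM in sucrose-seeking libraries, without overlap. Its averaged NAc difference was -0.34 ± 0.13 (adjusted p = 0.0567, and 0.039 with the replicate block), and on coding transcripts -0.53 (adjusted p = 0.0363). On coding transcripts Ift140 of IFT-A (0.39, adjusted p = 0.0118) and Ift172 of IFT-B2 (0.30, adjusted p = 0.0194) rose in the NAc. Ift88, a core subunit without which cilia do not form, had averaged differences of 0.27 ± 0.17 in the NAc (adjusted p = 0.254) and 0.34 ± 0.17 in the mPFC (adjusted p = 0.186, and 0.0394 with the replicate block). Ift70a2, whose reads cannot be told from those of its copies, had 0.85 ± 0.26 in the mPFC (adjusted p = 0.0327), a call lost without female pool 2.

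**Figure D5:**
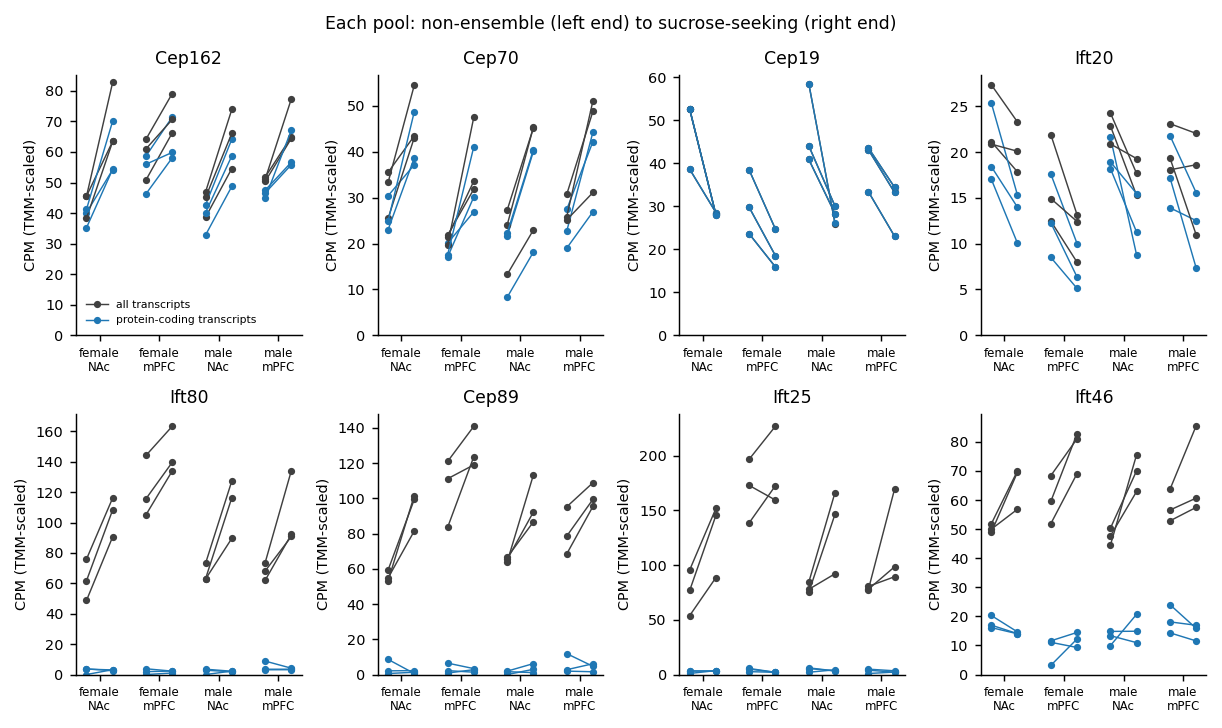
Level in TMM-scaled CPM (y axis) of 8 members in the non-ensemble and sucrose-seeking library of each pool (x axis, joined by a line), on all transcripts (black) and on protein-coding transcripts alone (blue). For Cep162 and Cep70 the blue lines follow the black ones, for Cep19 both fall, for example from 52.5 to 28.1 CPM in female NAc pool 1, and for Ift80 and Cep89 the blue lines stay near 0 while the black ones rise.

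In the BBSome, Bbs5, a subunit that binds membrane phosphoinositides, was at 7.03, 3.97 and 6.96 CPM in female NAc non-ensemble libraries and at 13.7, 13.1 and 16.5 CPM in sucrose-seeking libraries. The groups did not overlap, and the gene rose 2.32-fold (log2 1.22 ± 0.25, adjusted p = 0.00767). Its averaged differences were 0.93 ± 0.19 in the NAc (adjusted p = 0.000673) and 0.57 ± 0.17 in the mPFC (adjusted p = 0.0286, and 0.182 without female pool 2), and the NAc value was 0.78 on coding transcripts (adjusted p = 0.413) and 0.47 with length-scaled counts (adjusted p = 0.202). Bbs1, which binds the GTPase Arl6, had 0.19 ± 0.11 in the mPFC (adjusted p = 0.29, and 0.0318 with the replicate block), and its adjusted p in the NAc was 0.98. Bbs10, a chaperonin-like protein needed to assemble the BBSome, rose by 0.90 ± 0.25 over both sexes in the NAc (adjusted p = 0.0094), against -0.47 on coding transcripts (adjusted p = 0.719).

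At the transition zone, Tctn1 rose in the NAc on either count. Its libraries went from 43.1, 30.9 and 30.8 to 49.7, 45.4 and 52.7 CPM in females and from 22.6, 31.6 and 30.9 to 32.9, 44.3 and 47.5 CPM in males, without overlap. The averaged difference was 0.46 ± 0.13 (adjusted p = 0.00954), 0.59 on coding transcripts (adjusted p = 0.00331) and 1.00 with length-scaled counts (adjusted p = 0.00442). In the mPFC it was 0.42 ± 0.12 (adjusted p = 0.0248, and 0.113 without female pool 2). In the single-sex fits of the mPFC the members with the smallest unadjusted p included Cep70 (0.89 ± 0.18), Cep95 (0.97 ± 0.21) and Cep63 (0.53 ± 0.15) in females. In males they included Cep152 (1.14 ± 0.26), Ift70a2 (1.61 ± 0.46) and Cep70 (0.69 ± 0.20), and the adjusted p of these values ran from 0.068 to 0.144.

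The counts differed by coding share. The 16 members with under 50% of counts on coding transcripts included 9 of 35 Cep genes and none of the 3 IFT-A genes. Of these 16, 9 rose and 0 fell over both sexes in the NAc, with a median of 0.46 and 16 above 0. Of the other 52, 7 rose and 4 fell, with a median of 0.07 and 30 above 0. In the mPFC 4 rose and 0 fell of the 16 (median 0.36), and 10 rose and 0 fell of the 52 (median 0.16). On coding transcripts alone the 52 had medians of 0.22 in the NAc and 0.23 in the mPFC, with 38 above 0 in each, and the 16 had 0.16 and 0.06, with 11 and 9 above 0. As plain log2 ratios of group means, the 2539 protein-coding genes of the files under 50% coding had a median of 0.42 in the NAc (84.1% above 0) and 0.22 in the mPFC (74.5% above 0), beside 0.51 and 0.31 for the 16 members. The 16068 genes at 50% or more had 0.01 (50.9% above 0) and -0.06 (44.1% above 0), beside 0.13 and 0.12 for the 52 members, of which 35 and 34 were above 0.

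Other values moved with these results. Over both sexes in the NAc, 6 of 6 neuron markers fell (median -0.68), as did 7 of 8 astrocyte markers (median -0.69), while 7 of 8 endothelial markers (median 1.06) and 5 of 6 pericyte and smooth muscle markers (median 0.80) rose. The 6 neuron markers summed to 4945 to 5593 CPM in female NAc non-ensemble and 3142 to 3890 CPM in sucrose-seeking libraries, and the 8 endothelial markers to 108 to 174 and 290 to 344 CPM. In males the endothelial sum was 110 to 136 CPM and 130 to 299 CPM. Of further lists 2 of 8 microglial markers (median -0.36), 6 of 8 accumbens markers (median -0.57) and 3 of 6 cortex markers (median -0.43) fell. The oligodendrocyte lineage markers had a median sum of 3387 CPM in non-ensemble and 2332 CPM in sucrose-seeking libraries of the NAc, and of 2374 and 1765 CPM in the mPFC. In the mPFC 4 of 6 neuron markers fell (median -0.56) and 4 of 8 endothelial markers rose (median 0.75). The markers of motile cilia and ependymal cells, which share many cilium genes, summed to 120 to 127 CPM in female NAc non-ensemble and 149 to 168 CPM in sucrose-seeking libraries, and 3 rose and 1 fell of the 19 tested over both sexes. No gene of any of these lists was at 0 in all libraries of a group, and their part in the result was not tested.

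Cilium and centrosome genes under other symbols gave mixed counts in the same averaged fit, to be read against 11.2% up and 15.8% down over all genes in the NAc. Of 16 other transition zone genes 5 rose and 0 fell (median 0.33): Invs by 0.84 ± 0.15 (adjusted p = 0.00024), Tmem67, Tmem216, Anks6 and Rpgrip1l. On coding transcripts 3 rose. In the mPFC 3 rose and 0 fell (median 0.35), Invs by 0.62 ± 0.12 (adjusted p = 0.0023), Tmem67 by 0.71 ± 0.16 (adjusted p = 0.0051) and Anks6 by 0.51 ± 0.14 (adjusted p = 0.016). Of 19 other IFT, BBSome and motor genes 3 rose and 6 fell in the NAc (median -0.04), with the kinesin subunit Kif3a down by 0.38 (SE 0.11, adjusted p = 0.014). Of 18 ciliary signalling genes 1 rose and 5 fell (median -0.12). Those that fell included Adcy3, the neuronal ciliary cyclase, by 0.30 (SE 0.11, adjusted p = 0.049) and Smo, the Hedgehog transducer, by 0.45 (SE 0.14, adjusted p = 0.015), and the riser was the Hedgehog target Gli1, by 0.74 ± 0.26 (adjusted p = 0.035). Of 24 other centriole genes 3 rose and 4 fell in the NAc, against 4 and 3 in the mPFC. Of 10 RFX and FOXJ1 factors, which switch on cilium genes, Rfx1 rose and Foxj1, the motile cilium factor, fell by 0.85 (SE 0.27, adjusted p = 0.021) in the NAc.

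Over the 12 pairs of libraries, 6 a region and not independent since the regions share mice, a count with no test put 12 of 68 members (17.6%) higher in the sucrose-seeking than the non-ensemble library of every pair, where 7.24% of 21393 genes with a mean of at least 1 CPM were. They included Bbs12, Cep162, Cep170, Cep290, Cep63, Cep70, Cep89, Cep95, Ift46, Ift80 and Tctn1. Lower in all 12 were Cep120 and Cep19 (2.94%, against 13.9% of genes). Scaled to the library total alone, 25 members (36.8%, against 13.6% of genes) were higher in all 12 pairs and only Cep19 (1.47%, against 8.53%) lower in all.

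The comparison of cocaine-seeking with sucrose-seeking cells sets the ensembles of the rewards against each other, and these differed in tagging too. Cocaine-seeking cells carried tdTomato from an earlier test, while sucrose-seeking cells were stained for cFos after the later sucrose test. The paper states that tagging was not counterbalanced and counts this as a limit on interpretation. Effects of reward and of tagging method or time therefore cannot be told apart here. No member passed in a single sex and region by edgeR, with 15 and 4 at an unadjusted p under 0.05 in the NAc of females and males and 7 and 7 in the mPFC. DESeq2 called 4 in the female NAc and 0 in the other fits, and of all genes 0.363% and 0.0241% passed by edgeR in the NAc of females and males and 0.0214% and 0.0118% in the mPFC. Over both sexes Cep19 was higher (log2 0.59 ± 0.12, adjusted p = 0.012) and Cep290 (-0.32 ± 0.09, adjusted p = 0.038) and Cep295 (-0.39 ± 0.11, adjusted p = 0.039) lower in the cocaine-seeking cells of the NAc, where 5.29% of all genes passed. On coding transcripts the adjusted p was 0.042 for Cep19, 0.086 for Cep290 and 0.039 for Cep295. Ift172 had -0.30 ± 0.10 (adjusted p = 0.076). In the mPFC Cep70 was lower (-0.63 ± 0.13, adjusted p = 0.03, and 0.014 on coding transcripts), where 0.416% of all genes passed, and Cep83 and Cep135 had -0.41 ± 0.11 and -0.42 ± 0.13 without passing. The Cep70 libraries of the female mPFC were at 22.2, 26.8 and 28.6 CPM in cocaine-seeking cells, all below the sucrose-seeking 31.9, 33.6 and 47.6 CPM, and in the male mPFC at 23.0, 27.6 and 31.1 CPM, of which pool 3 equalled the lowest sucrose-seeking value of 31.1 CPM to this precision. Without female pool 2 no member passed in either region, and with the replicate block 2 were higher and 8 lower in the NAc, against 0 and 10 in the mPFC. In single-sex fits the block called 1 higher and 6 lower in the female NAc and 2 lower in the female mPFC. The share of all genes is not given here for these block fits, so their counts cannot be read as particular to the members. With length-scaled counts no member was called by edgeR over both sexes in either region, with 10 and 9 at an unadjusted p under 0.05, and 0.00367% and 0.0285% of all genes passed. Markers of other cells moved in the same comparison. Of 8 microglial markers 8 were higher in cocaine-seeking cells of the NAc (median 1.10) and 7 in the mPFC (median 1.33), and their sum was 313 to 424 against 178 to 204 CPM in the female NAc and 334 to 379 against 129 to 173 CPM in males. In the mPFC it was 205 to 278 against 99.5 to 118 CPM in females and 223 to 398 against 109 to 135 CPM in males, so that no groups overlapped. Also in the NAc, 7 of 8 astrocyte and 4 of 6 neuron markers were higher, and 4 of 8 endothelial and 2 of 6 pericyte and smooth muscle markers lower, with an endothelial sum of 138 to 204 against 290 to 344 CPM in females. The part of these cells in the result was not tested.

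The members' median of this comparison was -0.17 in each region, beside -0.01 in the NAc and 0.03 in the mPFC over all genes and 0.03 and 0.02 over protein-coding genes. Their summed TMM-scaled CPM was lower in cocaine-seeking than sucrose-seeking libraries in 6 of 6 NAc pools (median ratio 0.869) and with a median ratio of 0.914 in the mPFC. Here the coding sum was lower too, with median ratios of 0.919 and 0.897 and 1 of 6 pools above 1 in each region, and the sum over other transcripts had 0.783 and 0.934 with 0 of 6 above 1. Scaled to the library total alone, the median ratios were 0.831 and 0.895 for all transcripts and 0.885 and 0.874 for the coding sum, with 0 of 6 pools above 1 in each region, and 0.753 and 0.914 for the other transcripts, with 0 of 6 and 1 of 6. Across the 12 pairs of libraries, 12 members (17.6%, against 3.23% of genes) were lower in every cocaine-seeking library than in the sucrose-seeking library of its pool, among them Cep135, Cep164, Cep290, Cep295, Cep350, Cep63, Cep70, Cep83, Cep95, Tctn1 and Tctn3. Ift27 was higher in all 12 (1.47%, against 3.01%). Scaled to the library total, 13 members were lower in all 12 (19.1%, against 4.77%), and Cep19 and Ift27 higher (2.94%, against 3.94%).

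Cocaine-seeking and non-ensemble cells, which share the non-ensemble libraries with the comparison above, did not give a call by edgeR for any member. Of all genes 0.00781% passed in the female NAc, 0.0% in males of the NAc, 0.0% in females of the mPFC and 0.0% in males of the mPFC, and over both sexes 0.145% in the NAc and 0.0901% in the mPFC. At an unadjusted p under 0.05 stood 9 members in the NAc and 11 in the mPFC over both sexes. DESeq2 called 2 in the male mPFC and 0 in the other fits. The smallest p belonged to Cep89 (0.43 ± 0.10, adjusted p = 0.08), Ift80 (0.47 ± 0.14), Bbs5 (0.56 ± 0.19) and Cep162 (0.30 ± 0.11) in the NAc, and to Ift70a2 (1.23 ± 0.26, adjusted p = 0.066), Ift80 (0.42 ± 0.13), Ift25 (0.49 ± 0.16) and Cep89 (0.31 ± 0.13) in the mPFC. The NAc Cep89 libraries were at 86.0, 68.2 and 75.2 CPM in cocaine-seeking females and 89.6, 90.6 and 79.3 CPM in males, all above the non-ensemble libraries of their sex. With the replicate block 5 members were higher and 1 lower in the NAc, against 7 and 2 in the mPFC, with 3 higher in the female NAc and 4 higher and 1 lower in the male mPFC alone. These block counts are given without the share of all genes and cannot be read as particular to the members. In the single-sex fits the leading values were Ift70a1 (1.77 ± 0.46), Cep89 (0.46 ± 0.14), Bbs5 (0.82 ± 0.26) and Ift81 (-0.35 ± 0.15) in the female NAc. In the male NAc they included Ift80 (0.48 ± 0.16), Cep89 (0.42 ± 0.15) and Cep152 (0.73 ± 0.30). In the mPFC they were Cep95 (0.45 ± 0.21), Cep70 (0.33 ± 0.18), Ift57 (-0.38 ± 0.21) and Bbs12 (0.50 ± 0.29) for females, and Ift70a2 (2.04 ± 0.47), Ift80 (0.62 ± 0.19), Ift25 (0.73 ± 0.23) and Cep68 (-0.41 ± 0.16) for males.

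Overlapping cells, positive for both signals, were set against the same non-ensemble libraries. Over both sexes in the NAc Cep89 (0.50 ± 0.10, adjusted p = 0.014) and Ift80 (0.53 ± 0.14, adjusted p = 0.044) rose and Cep19 fell by 0.46 (SE 0.12, adjusted p = 0.044), where 1.97% of all genes passed. Cep162 had 0.38 ± 0.11 (adjusted p = 0.062). On coding transcripts no member passed there by edgeR, with 0 to 6 calls on all transcripts when 1 library was left out: 6 without the overlapping library of male pool 3, 5 without the non-ensemble library of female pool 1, 0 without the overlapping library of male pool 2 or female pool 1, and 1 without the overlapping library of male pool 1 or female pool 3 or the non-ensemble library of pool 3 of either sex. The Ift80 libraries stood at 112, 72.9 and 87.3 CPM in overlapping females, of which pool 2 lay within the non-ensemble range of 48.8 to 76.0 CPM, and at 103, 98.3 and 83.3 CPM in males, all above the non-ensemble 62.9 to 73.3 CPM. In the mPFC no member passed by edgeR (0.568% of all genes), with 14 at an unadjusted p under 0.05, led by Cep152 (0.64 ± 0.18), Ift22 (-0.42 ± 0.15), Ift80 (0.35 ± 0.13) and Cep135 (0.35 ± 0.13). In single sexes none passed by edgeR, where of all genes 0.0391% and 0.12% did in the NAc of females and males and 0.0608% and 0.0% in the mPFC, and DESeq2 called 4 in the male NAc and 0 in the other fits. The averaged fit with the replicate block gave 5 higher and 3 lower in the NAc, against 10 and 3 in the mPFC, without a share of all genes to read them against. Length-scaled counts gave none in either region, with 14 and 10 at an unadjusted p under 0.05 (0.807% and 0.121% of all genes passed). Of 8 microglial markers 8 rose in the NAc (median 1.03) and 7 in the mPFC (median 1.28), with sums of 377 to 459 against 168 to 261 CPM in the female NAc and 437 to 519 against 173 to 233 CPM in the male NAc. In cocaine-seeking against non-ensemble cells 6 of 8 rose in each region (medians 0.82 and 0.96), and the part of these markers in the results was not tested.

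Cocaine-seeking and overlapping cells, both tagged after the cocaine test, gave no call. No gene of any kind passed by edgeR, and no member by DESeq2 in the single-sex fits, with 0.0%, 0.0%, 0.0% and 0.0% in the single-sex fits and 0.0% and 0.0% over both sexes, and 1 member in the NAc and 2 in the mPFC had an unadjusted p under 0.05. The smallest p belonged to Cep250 (-0.22 ± 0.10) in the NAc and to Ift70a2 (0.85 ± 0.26) in the mPFC. Over these 5 comparisons of populations, 15 interaction tests of sex and region called no member in edgeR, with a lowest adjusted p of 0.773, which does not show that the differences were equal.

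Between the regions, summed over the 4 populations of a pool, females and males gave unlike counts. In females 25 members were higher and 3 lower in the NAc, where 41.9% of all genes passed in either direction. These 28 of 68 members are a share close to that of all genes, whose shares by direction are not given here. The members' median was 0.32 against -0.32 over all genes and 0.14 over protein-coding genes. The smallest adjusted p belonged to Cep68, a linker protein between centrioles (0.77 ± 0.14, adjusted p = 0.0012), Cep83, the base of the distal appendages (0.72 ± 0.15, adjusted p = 0.0021), Ift20 (0.88 ± 0.18, adjusted p = 0.0022), Cep19 (0.91 ± 0.19, adjusted p = 0.0024) and Tctn3 (0.76 ± 0.16, adjusted p = 0.0028). Further members that passed included Ift57 (0.64 ± 0.17), Cep97 (0.53 ± 0.14), Cep295 (0.56 ± 0.15), Cep250 (0.57 ± 0.16), Cep350 (0.63 ± 0.17) and Ift172 (0.56 ± 0.16). Lower were Ift25 (-0.65 ± 0.20, adjusted p = 0.017), Cep89 (-0.44 ± 0.14, adjusted p = 0.022) and Ift80 (-0.46 ± 0.16, adjusted p = 0.027), the members with the lowest coding shares. The Cep68 libraries of non-ensemble females were at 34.2, 37.2 and 35.2 CPM in the NAc and 22.2, 19.8 and 22 CPM in the mPFC, clearly apart, and those of males at 29.9, 31.5 and 29.2 against 36.9, 36.7 and 32.4 CPM, apart in the other direction. Over the sum of the 4 populations the male difference was 0.12 ± 0.14 (adjusted p = 0.983).

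These regional counts depended on what was counted. On coding transcripts 8 members were higher and 4 lower in the female NAc, of 47.6% of all genes, and among protein-coding genes alone 12 were higher and 10 lower. DESeq2 size factors moved the median of all genes from -0.32 to -0.17, and that of protein-coding genes from 0.14 to 0.30, and gave 31 higher and 0 lower. Restriction to protein-coding genes took their median from 0.14 to -0.11 and that of the members to 0.08. Without female pool 2 the count was 14 higher and 0 lower, and with the replicate block 44 and 4. For these fits, and for those on DESeq2 size factors and on protein-coding genes alone, the share of all genes is not given here. Pools of both regions share mice, so that the unpaired fit treats as independent what came from the same animals. Without the pool sum of NAc pool 2 or 3 it was 13 or 16 in all, and without that of mPFC pool 1 it was 10. In males no member passed by edgeR (1.89% of all genes), with 6 at an unadjusted p under 0.05 led by Ift70b (-0.64 ± 0.18), Cep112 (-0.65 ± 0.20) and Ift56 (-0.51 ± 0.18), and on coding transcripts 1 passed, of 4.42%. The retained-intron share of the non-ensemble libraries averaged 5.71% in the female NAc and 8.56% in the female mPFC, and 5.77% and 6.07% in males. Markers of other cells differed between the regions as well. The motile cilia and ependymal markers (20 found) summed to 120 to 127 CPM in non-ensemble female NAc libraries and 297 to 467 CPM in the mPFC, and to 125 to 150 and 368 to 439 CPM in males, with 17 of 20 lower in the female and 15 of 20 in the male NAc. In females 7 of 8 microglial, 6 of 6 neuron and 8 of 8 accumbens markers were higher in the NAc. With the cortex markers low in the female mPFC libraries, the part of the region and of these cells in the differences was not tested.

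The naive libraries held more counts and may have been processed differently, so a difference of group and one of processing cannot be told apart. In the female NAc 5 members were higher in naive than non-ensemble libraries, Ift57 (0.82 ± 0.16), Ift70b (0.93 ± 0.19), Cep83 (0.57 ± 0.12), Cep19 (0.56 ± 0.16) and Ift20 (0.68 ± 0.19), and Cep164 was lower (-0.49 ± 0.15), where 8.08% of all genes passed. In the female mPFC 16 were higher, led by Cep68 (1.16 ± 0.19), Cep112 (1.20 ± 0.21), Cep83 (0.92 ± 0.18), Ift20 (1.20 ± 0.24), Ift57 (1.01 ± 0.21) and Cep15 (1.02 ± 0.22). The others included Ift81 (1.01 ± 0.24), Bbs9 (0.73 ± 0.19), Cep63 (0.58 ± 0.16) and Cep19 (0.95 ± 0.26), and Ift70a2 was lower (-0.85 ± 0.30) in this fit, where 33.9% of all genes passed. In the male NAc Cep85 (0.56 ± 0.15), Bbs2 (0.82 ± 0.23) and Cep20 (0.55 ± 0.17) were higher and Cep290 (-0.40 ± 0.11) lower (11.9% of all genes). In the male mPFC Bbs9 (0.74 ± 0.22) and Cep20 (0.65 ± 0.20) were higher and Ift46 (-0.60 ± 0.18) lower (12.9% of all genes). On coding transcripts 3 were higher and 3 lower in the female NAc, 8 and 4 in the female mPFC, 0 and 1 in the male NAc and 0 and 1 in the male mPFC, of 7.0%, 34%, 11% and 8.92% of all genes. The gene lower on coding transcripts was Cep83 in both male regions. The naive female mPFC libraries also differed in composition, with cortex markers at 1026 to 2234 against 110 to 175 CPM, neuron markers at 5203 to 9836 against 2465 to 3396 CPM and motile cilia and ependymal markers at 139 to 189 against 297 to 467 CPM in non-ensemble libraries, and their part in the result was not tested.

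Ift25 and Cep89 had the widest gaps. Ift25 was at 9.91, 11.2 and 12 CPM in naive male NAc libraries against 84.4, 75.3 and 77.9 CPM in non-ensemble libraries (-2.84 ± 0.23, adjusted p = 9.3e-08), and the male mPFC gave -2.99 ± 0.24 (adjusted p = 1.3e-07). Cep89 was at 24, 30.03 and 25.2 CPM in naive male NAc libraries against 64.0, 65.3 and 66.5 CPM (-1.30 ± 0.15, adjusted p = 4.2e-06) and differed by -1.56 ± 0.19 in the male mPFC. Neither gene overlapped between the groups on all transcripts. On coding transcripts Ift25 had -0.10 in the male NAc and 0.44 in the male mPFC, and Cep89 1.69 and -0.13, none of which passed.

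The promoters of the members were searched for the RFX X-box, the motif of the factors that drive cilium genes, in the 250 bases before to 50 after each gene's start (RefSeq, GRCm38.p6, both strands), a window for which 52 of 68 members had a sequence. The X-box pattern that was searched was in 0 of 52 members and in 41 of 27025 genes (0.152%). A pattern this rare would be absent from most sets of 52 genes. The search therefore cannot show whether the members lack X-boxes, and nothing is concluded from it. The shorter RFX site GTTGCCAT was in 3 members, Cep112, Cep128 and Tctn2 (5.77%), and in 416 of 27025 genes (1.54%).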

How the data were processed

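Per the labels and the study's methods, the authors trimmed reads of ribosome-depleted, low-input libraries (cutadapt) and estimated transcript abundance in Salmon, on the GRCm39 transcriptome. The submitters' processing notes also name FastQC and DESeq2. Neither versions nor the use of strand is given in the sources used here. Deposited files hold estimated counts and TPM of 117209 transcripts. Of these 116085 matched GENCODE mouse release 39 by identifier, and the 1124 unmatched took 2.23 to 7.10% of the counts of the 48 libraries. Estimated counts were summed per gene and rounded. A second sum used transcripts annotated as protein-coding alone.

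Comparisons were made per sex and region with edgeR 4.0.16 (R 4.3.3), using TMM scaling, filterByExpr, the quasi-likelihood test and Benjamini-Hochberg adjustment over all genes tested, with DESeq2 1.42.0 as an alternative and a threshold of 0.05. CPM, like the fold changes, are TMM-scaled, with factors computed over all 60 libraries. Sums were repeated on the library total alone and on the total of all protein-coding transcript counts. Region differences used the sum of the 4 populations of each pool. With 3 libraries a group, no permutation test of a single gene can go below p = 0.1. Pool numbers pair the libraries because the populations of a pool were sorted from the same mice. Libraries of the same number deviated together with mean correlations of 0.110, 0.149, 0.0666 and 0.0979 (female NAc, female mPFC, male NAc, male mPFC), against -0.0548, -0.0744, -0.0330 and -0.0489 for other numbers. Alternatives were the replicate block, DESeq2, DESeq2 size factors, no filter, length-scaled counts (single-sex and averaged fits), protein-coding genes or transcripts only, no female pool 2, and each library left out. In simulated counts for sucrose-seeking against non-ensemble cells of the female NAc (25607 genes), edgeR recovered 29% of 100 genes changed by 1 and 51% of 100 changed by 2 on the log2 scale, with 0 unchanged genes called. These counts were drawn with edgeR's own estimates of spread, without a pool effect and with few genes changed. The rates need not hold for the real libraries.

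The members and lists were chosen with earlier results of these data known. Named are the members that passed, up to 12 a direction by adjusted p, up to 4 with the smallest unadjusted p where fewer passed, the highest and lowest TPM of each subfamily, and Cep162, Ift88, Ift20, Bbs1, Cep290 and Tctn1. Cep70, Cep192, Cep295, Cep135, Cep63 and Cep164 were named beyond these counts in the averaged fits, and members called on coding transcripts alone, after their values were seen. Values of 3 members are not reported here by name, but counts and sums over the 68 include them. Region and sex labels conflict in some descriptions, and titles were followed. Sequences come from GRCm39, and figures were drawn with matplotlib 3.10.9.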

Additional observations from a re-analysis of the deposited data

How the results depend on the processing

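With 3 pools a group, single members moved past the threshold often. Over the alternatives that leave out 1 library, 663 gene results kept their side of the threshold and 279 lost it, and none reversed. With the replicate block 82 gene results kept their call. On protein-coding transcripts, where other reads are counted and the scaling between libraries changes too, 38 kept it, 66 lost it and 12 reversed. With length-scaled counts 8 kept it, 41 lost it and 5 reversed. The causes of these changes were not tested. Depth is lowest for Cep55, Ift70a2, Ift70a1 and Cep76, with means of 21.6, 49.0, 68.1 and 71.8 counts a library.

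Counts of members past the threshold, in either direction, moved as follows. From here on the counts are given without the share of all genes that passed. They show how calls of members moved with the processing, and nothing particular to the members. With the replicate block (pools paired), sucrose-seeking against non-ensemble gave 16 in the female NAc, 16 in the male NAc, 16 in the female mPFC, 19 in the male mPFC and 29 over both sexes in the mPFC. Cocaine-seeking against sucrose-seeking gave 7 in the female NAc, 2 in the female mPFC and 10 and 10 over both sexes in the NAc and mPFC. Cocaine-seeking against non-ensemble gave 3 in the female NAc, 5 in the male mPFC, and 6 and 9 over both sexes. Overlapping against non-ensemble gave 4 in the female NAc, 4 in the female mPFC, 5 in the male NAc, 2 in the male mPFC, and 8 and 13 over both sexes. NAc against mPFC gave 48 in females. On protein-coding transcripts with the replicate block, sucrose-seeking against non-ensemble gave 12 in the female mPFC, 7 in the male mPFC and 25 over both sexes in the mPFC. Cocaine-seeking against sucrose-seeking gave 4 in the female NAc and 10 and 5 over both sexes. Cocaine-seeking against non-ensemble gave 1 in the male mPFC and 1 and 4 over both sexes. Overlapping against non-ensemble gave 3 in the female mPFC, 2 in the male NAc and 8 over both sexes in the mPFC.

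On protein-coding transcripts without the block, sucrose-seeking against non-ensemble gave 1 in the male NAc and 1 in the female mPFC. Cocaine-seeking against non-ensemble gave 1 and overlapping against non-ensemble 0 over both sexes, in the mPFC and the NAc. Naive against non-ensemble gave 1 in the male NAc and 1 in the male mPFC, and NAc against mPFC 12 in females and 1 in males. Among protein-coding genes only, sucrose-seeking against non-ensemble gave 13, 11, 2 and 3 (female NAc, male NAc, female mPFC, male mPFC). Cocaine-seeking against sucrose-seeking gave 2 in the female NAc and 5 over both sexes of the NAc, cocaine-seeking against non-ensemble 1 over both sexes of the mPFC, overlapping against non-ensemble 5 and 1 over both sexes, and NAc against mPFC 2 in males.

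DESeq2 gave 14 in the male NAc, 3 in the female mPFC and 5 in the male mPFC for sucrose-seeking against non-ensemble, 4 for cocaine-seeking against sucrose-seeking in the female NAc, 2 for cocaine-seeking against non-ensemble in the male mPFC, 4 for overlapping against non-ensemble in the male NAc, and 11 and 16 for naive against non-ensemble in the female and male NAc. In data simulated with edgeR's own estimates of spread and without a pool effect, DESeq2 called 20 unchanged genes where edgeR called 0. That setting favours edgeR and cannot rank the tools on the real libraries. Without a filter on low counts naive against non-ensemble gave 11, 10 and 3 (female mPFC, male NAc, male mPFC). Length-scaled counts gave 1 and 0 for sucrose-seeking against non-ensemble in the female and male NAc, 5 over both sexes of the mPFC, and 0 over both sexes for cocaine-seeking against sucrose-seeking in either region and for overlapping against non-ensemble in the NAc. Without female pool 2, NAc against mPFC gave 14 in females, sucrose-seeking against non-ensemble 4 over both sexes of the mPFC, and cocaine-seeking against sucrose-seeking 0 and 0 over both sexes.

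Leaving out 1 library gave, for sucrose-seeking against non-ensemble, 1 to 14 calls in the female NAc, 0 to 6 in the male NAc, 0 to 1 in the male mPFC, 17 to 27 over both sexes in the NAc and 7 to 16 in the mPFC. Cocaine-seeking against sucrose-seeking had 0 to 1 in the female NAc and 0 to 4 and 0 to 1 over both sexes. Cocaine-seeking against non-ensemble had 0 to 2 and 0 to 1 over both sexes, and overlapping against non-ensemble 0 to 6 over both sexes of the NAc. NAc against mPFC had 10 to 29 in females and 0 to 1 in males, and naive against non-ensemble 3 to 8, 10 to 21, 2 to 8 and 2 to 6 (female NAc, female mPFC, male NAc, male mPFC).

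Log2 differences reversed on protein-coding transcripts for Cep89 (-1.31, female NAc), Bbs10 (-0.47, both sexes, NAc) and Ift80 (-0.10, both sexes, mPFC) in sucrose-seeking against non-ensemble, and for Ift80 (-0.92) in overlapping against non-ensemble in the NAc. They reversed for Cep112 (-0.0054, female mPFC), Cep89 (1.69, male NAc) and Ift46 (0.056), Cep20 (-0.017) and Ift25 (0.44) of the male mPFC in naive against non-ensemble, and for Cep89 (0.21), Ift80 (0.45) and Ift25 (0.013) between regions in females. On these transcripts with the replicate block Cep89 (-0.74), Bbs10 (-0.60) and Ift80 (-0.83) reversed in the same fits, and with length-scaled counts Ift80 did in the female NAc (-0.25). With length-scaled counts Cep72 (-0.074, NAc) and Ift80 (-0.086, NAc, and -0.077, mPFC) reversed over both sexes in sucrose-seeking against non-ensemble, and Ift80 (-0.17) in overlapping against non-ensemble in the NAc.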
